A study of Arabidopsis thaliana with 4 samples.

Results

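The 6 transcription factor genes described here pattern the root tip: SHR (SHORT ROOT, AT4G37650), SCR (SCARECROW, AT3G54220), JKD (JACKDAW, AT5G03150), MGP (MAGPIE, AT1G03840), NUC (NUTCRACKER, AT5G44160) and WOX5 (WUSCHEL related homeobox 5, AT3G11260). They were chosen by locus code, as a named pathway and with earlier results of these data known, and all 6 were found among the 33602 loci of the deposited table. The samples were root tips of 3 mm, cut from wild-type Arabidopsis thaliana (ecotype Col-0) seedlings at an age of 5 days. The seedlings had been moved to plates of dilute MS medium that held either no drug (control) or 0.5 µM narciclasine, and were kept there for 2 or 12 h. Narciclasine is an alkaloid of daffodils and their relatives that binds the large ribosomal subunit and blocks translation. The 4 groups, control 2 h, narciclasine 2 h, control 12 h and narciclasine 12 h, held 1 library each, so no difference below has a replicate check, no p-value is given, and every value describes these libraries.

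SHR and SCR are GRAS family regulators that lay out the radial pattern of the root. SHR is transcribed in the stele, and its protein moves outward into the endodermis and the quiescent centre, where it acts with SCR to specify the endodermis and to drive the division that separates endodermis from cortex. JKD, MGP and NUC belong to the IDD family of zinc finger proteins, also called BIRD proteins, which bind SHR and SCR, help to hold SHR in the layer around the stele, and include direct targets of SHR. WOX5 encodes a homeodomain protein made in the quiescent centre, the rarely dividing cells in the middle of the stem cell niche, from which it keeps the neighbouring columella stem cells from differentiating.

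In these libraries the 6 genes followed different patterns. MGP was 2.38-fold higher with narciclasine at 2 h and 1.25-fold higher at 12 h. NUC was 1.77-fold and 1.70-fold higher at the same times. SHR was 1.32-fold higher at 2 h and 1.46-fold lower at 12 h. SCR and JKD stayed within 1.5-fold of the control of their time. WOX5 was highest in the control 2 h library, 2.58-fold lower with narciclasine at 2 h, and low in both 12 h libraries, the untreated one included.

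Levels are given as RPKM, the deposited unit, reads scaled by both gene length and library size. Levels of different genes can be compared only as far as the gene lengths used hold. For each member that length was shorter than its annotated exons, by unequal shares. It was 750 bases against 1052 for WOX5, 1724 against 2300 for NUC and 2509 against 2778 for SCR. Counting intervals do not cover this, and orders and ratios between genes were not recomputed with annotated lengths. The library sizes recovered from the values were 14541412 reads for control 2 h, 14244108 for narciclasine 2 h, 11880278 for control 12 h and 14724075 for narciclasine 12 h. Ratios between libraries are of reads scaled by the trimmed mean of M values (TMM). A range in brackets is a 95% counting interval, which covers counting error only and no variation between seedlings. It is exact for a ratio of 2 libraries or of 2 genes in a library. It is approximate against the mean of both controls, and for the ratio of ratios (the narciclasine ratio at 12 h over that at 2 h). A gene was counted as differing at a ratio of 2-fold or more with an interval that excludes 1. In all 19377 genes were compared, and the median log2 ratio of all of them was between -0.05 and 0 in the 4 comparisons of libraries. Markers of the root tip were present in every library. The 5 markers of dividing cells summed to 57.4 RPKM in control 2 h, 56.6 in narciclasine 2 h, 55.0 in control 12 h and 15.9 in narciclasine 12 h. The 7 endodermis markers other than SCR summed to 798, 773, 896 and 439 RPKM in the same order. CASP1, a gene of the Casparian strip, alone gave 417, 388, 458 and 243 RPKM of these sums. MYB36 among them had 35.9, 63.9, 39.2 and 33.5 RPKM, and EN7 12.6, 15.7, 11.1 and 6.63. The 4 markers of green shoot tissue summed to 17.6, 11.2, 47.0 and 8.999 RPKM. The part of these differences between libraries in the results below was not tested.

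The upstream region of SCR is shown because it held a letter run searched for. Sequences and positions come from the RefSeq TAIR10.1 genome and annotation and cover the 250 bases before the annotated start, 5′ to 3′ on the strand of the gene. For SCR, on the plus strand, the window is chr3:20069737-20069986, and capitals mark a match to the IDD core.
SCR: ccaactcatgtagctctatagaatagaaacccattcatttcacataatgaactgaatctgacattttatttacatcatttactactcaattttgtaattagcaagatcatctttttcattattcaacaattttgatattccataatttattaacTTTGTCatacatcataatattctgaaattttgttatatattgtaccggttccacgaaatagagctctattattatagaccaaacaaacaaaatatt

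The exons of MGP had their best match elsewhere in the genome in NUC, at 80.8% identity over 401 bases, and those of NUC had theirs in MGP. The core TTTGTC that IDD proteins bind, searched on both strands, occurred in 1 of the 4 windows searched (SHR, SCR, JKD and NUC), 96 bases before the start of SCR, against 24.1% of all windows. The auxin response core TGTCTC, which can overlap it, occurred in none of these 4, against 10.9% of all windows. In that annotation no other gene overlaps any of the 6. A stretch of at least 50 bases with at least 90% identity elsewhere in the genome was found for JKD exons (1 match) and for no other member.

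**Figure D1:**
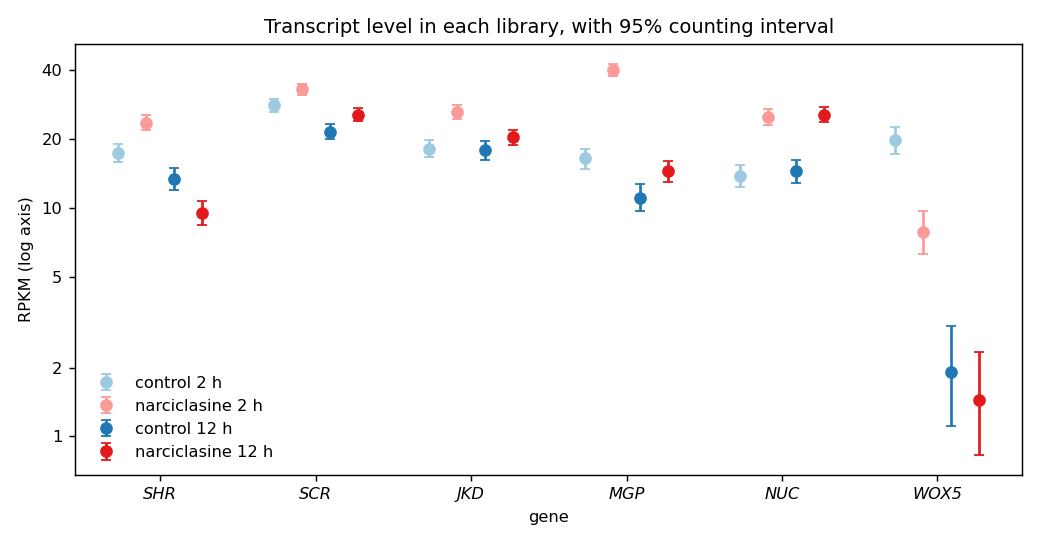
RPKM of the 6 genes (log axis) in each of the 4 libraries, 1 point per library, with exact Poisson 95% counting intervals as bars. WOX5 spans 19.8 to 1.45 RPKM, whereas SCR and JKD lie between 17.9 and 33.0, and MGP reaches 40.2 in narciclasine 2 h.

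WOX5 differed most between libraries. It had 216 reads in control 2 h, 84 in narciclasine 2 h, 17 in control 12 h and 16 in narciclasine 12 h, or 19.8, 7.86, 1.91 and 1.45 RPKM. The control 2 h library is high, narciclasine 2 h is intermediate, and both 12 h libraries are low and overlap in their counting intervals. Between the untreated libraries WOX5 was 10.04-fold lower at 12 h than at 2 h (6.12 to 17.5). Only 0.124% of the genes compared had a lower ratio there, and 6.04% of genes differed in that comparison in either direction. In RNA of whole root tips, fewer quiescent centre cells in the sample and less transcript per cell cannot be told apart.

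The narciclasine ratio of WOX5 depends on which control it is set against. At 2 h it was 2.58-fold lower than in control 2 h (2.00 to 3.37), a comparison in which 6.81% of genes differed. Set against control 12 h the same narciclasine 2 h library was 3.88-fold higher (2.29 to 6.98), and against the mean of both controls it was 1.42-fold lower (1.10 to 1.85), under the threshold. At 12 h it was 1.37-fold lower than in control 12 h, with an interval from 2.90-fold lower to 1.53-fold higher, so 16 and 17 reads could not show a difference of either sign at this depth. Against control 2 h the narciclasine 12 h library was 13.8-fold lower (8.29 to 24.5). Within libraries, scaling between libraries has no part, though the gene lengths used do. WOX5 stood at 0.706 of the RPKM of SCR in control 2 h (0.606 to 0.818) and at 0.238 in narciclasine 2 h (0.189 to 0.297). It stood at 0.0884 in control 12 h (0.0512 to 0.143) and at 0.0566 in narciclasine 12 h (0.0322 to 0.0924).

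MGP, an IDD factor of the endodermis and cortex lineage and a direct target of SHR, had 392 reads in control 2 h, 937 in narciclasine 2 h, 216 in control 12 h and 350 in narciclasine 12 h. Its levels were 16.5, 40.2, 11.1 and 14.5 RPKM, so the narciclasine 2 h library stands above the other 3. It was 2.38-fold higher than in control 2 h (2.11 to 2.68), and 96.5% of the genes compared had a lower ratio. Against control 12 h the same library was 3.41-fold higher (2.94 to 3.97). At 12 h the ratio to the control of that time was 1.25 (1.06 to 1.49). Relative to control 2 h, narciclasine 12 h gave a ratio of 0.875 (0.755 to 1.01). Between the narciclasine libraries MGP was 2.72-fold lower at 12 h (2.40 to 3.08), where 15.9% of all genes were lower.

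NUC, the IDD factor closest to MGP in sequence, had 346 reads in control 2 h, 615 in narciclasine 2 h, 296 in control 12 h and 650 in narciclasine 12 h. The 2 control levels were 13.8 and 14.5 RPKM and the 2 narciclasine levels 25.0 and 25.6 RPKM, so the treated libraries lie above the untreated ones at either time. The ratio was 1.77 at 2 h (1.55 to 2.02) and 1.70 at 12 h (1.48 to 1.96), below the 2-fold threshold at both times. Taken against the control of the other time it was 1.63 (1.42 to 1.88) for narciclasine 2 h and 1.84 (1.61 to 2.10) for narciclasine 12 h.

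JKD, the IDD factor that sustains SCR expression and limits SHR movement, had 18.2 RPKM in control 2 h, 26.3 in narciclasine 2 h, 17.9 in control 12 h and 20.3 in narciclasine 12 h. The narciclasine 2 h library is the highest, and the other 3 libraries lie between 17.9 and 20.3. Its ratio was 1.41 at 2 h (1.26 to 1.58) and 1.09 at 12 h (0.963 to 1.24). Within libraries, NUC stood at 0.760 of the RPKM of JKD in control 2 h, 0.953 in narciclasine 2 h, 0.808 in control 12 h and 1.26 in narciclasine 12 h (1.13 to 1.41). MGP stood at 0.907, 1.53, 0.620 and 0.713 of JKD in the same order. Of the 3 IDD members MGP was thus the highest by RPKM in narciclasine 2 h and NUC in narciclasine 12 h. JKD led in control 12 h, and in control 2 h JKD and MGP could not be told apart (0.794 to 1.03). The lengths behind the RPKM were 1724 bases against 2300 annotated for NUC, 2046 against 2290 for JKD and 1638 against 1923 for MGP. Which of the 3 leads, and which can be told apart, depends on those lengths.

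SCR, which marks the endodermis, the initial cells of that layer and the quiescent centre, had 28.1 RPKM in control 2 h, 33.0 in narciclasine 2 h, 21.6 in control 12 h and 25.6 in narciclasine 12 h. The narciclasine library was higher than its control by a ratio of 1.15 at 2 h (1.05 to 1.25) and of 1.14 at 12 h (1.03 to 1.26), and the control at 12 h stood at 0.795 of that at 2 h (0.719 to 0.878). Against control 2 h, narciclasine 12 h was lower, at a ratio of 0.905 (0.828 to 0.9897). These differences are small, and with 1 library per group they cannot be set against variation between samples.

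SHR, the stele-made partner of SCR, had 501 reads in control 2 h, 664 in narciclasine 2 h, 314 in control 12 h and 277 in narciclasine 12 h, or 17.4, 23.6, 13.4 and 9.53 RPKM. Its highest and its lowest level were both in narciclasine libraries. The ratio was 1.32 at 2 h (1.17 to 1.48) and 0.683 at 12 h (0.579 to 0.805), and between the narciclasine libraries SHR was 2.44-fold lower at 12 h (2.11 to 2.81). The ratio at 12 h over that at 2 h was 0.518 (0.424 to 0.631), just short of 2-fold, and 23.8% of the genes with reads in every library passed that rule. SCR stood at 1.61 times the RPKM of SHR in both control libraries, at 1.40 in narciclasine 2 h (1.27 to 1.54) and at 2.69 in narciclasine 12 h (2.35 to 3.08). The stele markers other than SHR summed to 37.2 RPKM in control 2 h and 36.9 in narciclasine 2 h. They summed to 57.5 in control 12 h and 27.9 in narciclasine 12 h. Most of each sum was WOL, at 28.2, 26.0, 43.5 and 16.9 RPKM in the same order. TMO5 had 8.13, 8.40, 13.0 and 10.3 RPKM, and AHP6 0.793, 2.43, 0.971 and 0.671. The gene LHW among them was listed at 0 throughout. The part of these markers in the SHR values was not tested.

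**Figure D2:**
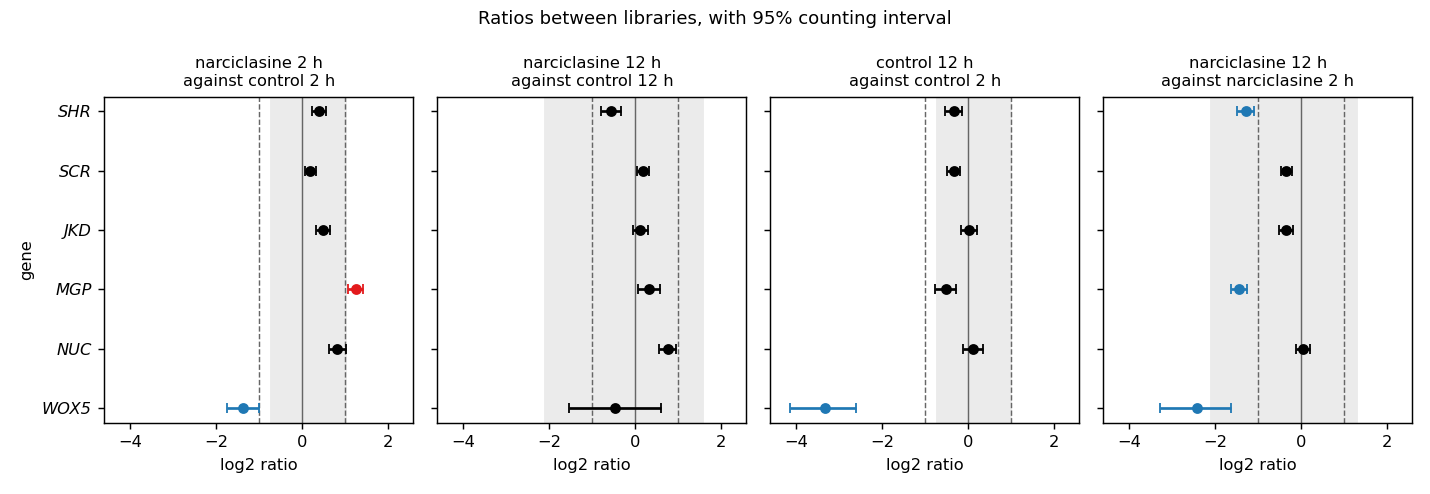
Log2 ratios of the 6 genes in 4 comparisons of libraries, with 95% counting intervals as bars; red and blue points are higher and lower by the 2-fold rule (dashed lines), black points are neither, and the grey band holds the middle 90% of the genes compared. MGP (1.25) and WOX5 (-1.37) lie outside the band at 2 h, and no member differs between narciclasine 12 h and control 12 h.

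In counts, 1 member was higher (MGP) and 1 lower (WOX5) in narciclasine 2 h than in control 2 h, beside 6.81% of all genes (4.74% higher and 2.06% lower), with a median log2 ratio over the members of 0.45. None of the 6 differed in narciclasine 12 h against control 12 h, where 28.1% of all genes did (11.4% higher and 16.7% lower), and the members' median was 0.16. Control 12 h had 1 member lower than control 2 h (WOX5) and none higher, beside 6.04% of all genes (4.38% higher and 1.66% lower). Narciclasine 12 h had 3 members lower than narciclasine 2 h (SHR, MGP and WOX5) and none higher, beside 23.9% of all genes (7.96% higher and 15.9% lower). No member passed the rule for the ratio of ratios, which 7.73% of all genes passed upward and 16.0% downward. Both narciclasine comparisons and the comparison of the controls share libraries, so they are not independent of each other.

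The order of the levels, taken with the gene lengths behind the RPKM, changed between libraries. In control 2 h SCR led, WOX5, JKD, SHR and MGP followed without a neighbouring pair whose interval excluded equality, and NUC came last. In narciclasine 2 h MGP led SCR by 1.22-fold (1.12 to 1.33), JKD, NUC and SHR could not be told apart from their neighbours among them, and WOX5 was last. In control 12 h the order was SCR, JKD, NUC, SHR, MGP and WOX5, of which NUC and SHR did not differ beyond counting error. In narciclasine 12 h SCR and NUC were level at 25.6 RPKM, and JKD, MGP, SHR and WOX5 followed, each below the one before.

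Of the 22 listed genes of the quiescent centre and distal stem cells, 19 could be compared. Of all genes 1.66% were lower and 4.38% higher in control 12 h than in control 2 h. Of the 19, 5 were lower there and 1 was higher (median log2 ratio -0.55, against -0.01 over all genes). The lower ones were PLT2 (2.06-fold) and PLT3 (2.19-fold), AP2-type factors that sustain the stem cell niche, FEZ (3.00-fold, 1.81 to 5.19), a NAC factor of root cap stem cells, SCZ (2.04-fold), a heat shock family factor of ground tissue identity, and ERF115 (3.95-fold, on 15 and 3 reads), which drives quiescent centre division. AGL42, a MADS gene used as a quiescent centre marker, went the other way and was 2.73-fold higher (1.37 to 5.73, on 13 and 28 reads). The 5 markers of dividing cells had a median log2 ratio of -0.01 in that comparison. The 4 root cap markers summed to 48.5 RPKM in control 2 h and 34.2 in control 12 h. FEZ, counted above, is also 1 of these 4, and the only 1 of them that differed there. The part of both marker sets in the low WOX5 level of control 12 h was not tested.

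With narciclasine at 2 h none of the 19 was lower and 2 were higher, beside 2.06% of all genes lower and 4.74% higher. The higher ones of the list were AGL42 (2.99-fold, 1.56 to 6.10) and ERF115 (2.39-fold, 1.28 to 4.70), and its median log2 ratio was 0.14. These calls rest on 13 and 39 reads of AGL42 and 15 and 36 of ERF115, and a filter of 5 CPM ended both and took the median to 0.00. At 12 h PLT3 (5.82-fold, 5.04 to 6.76), PLT2 (2.04-fold) and BBM (2.09-fold), a relative of the PLT genes, were higher. ROW1 (3.23-fold, 2.34 to 4.52), which keeps WOX5 transcription within the quiescent centre, was lower (median of the list 0.46). Of all genes 11.4% were higher and 16.7% lower there. PLT2 had 5.80 RPKM in control 2 h, 11.8 in narciclasine 2 h, 2.72 in control 12 h and 5.79 in narciclasine 12 h, so its level with narciclasine at 12 h was that of control 2 h. CDF4, which WOX5 represses in columella stem cells, had 6.00 RPKM in control 2 h, 8.22 in narciclasine 2 h, 4.43 in control 12 h and 6.33 in narciclasine 12 h, and did not differ in either comparison.

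**Figure D3:**
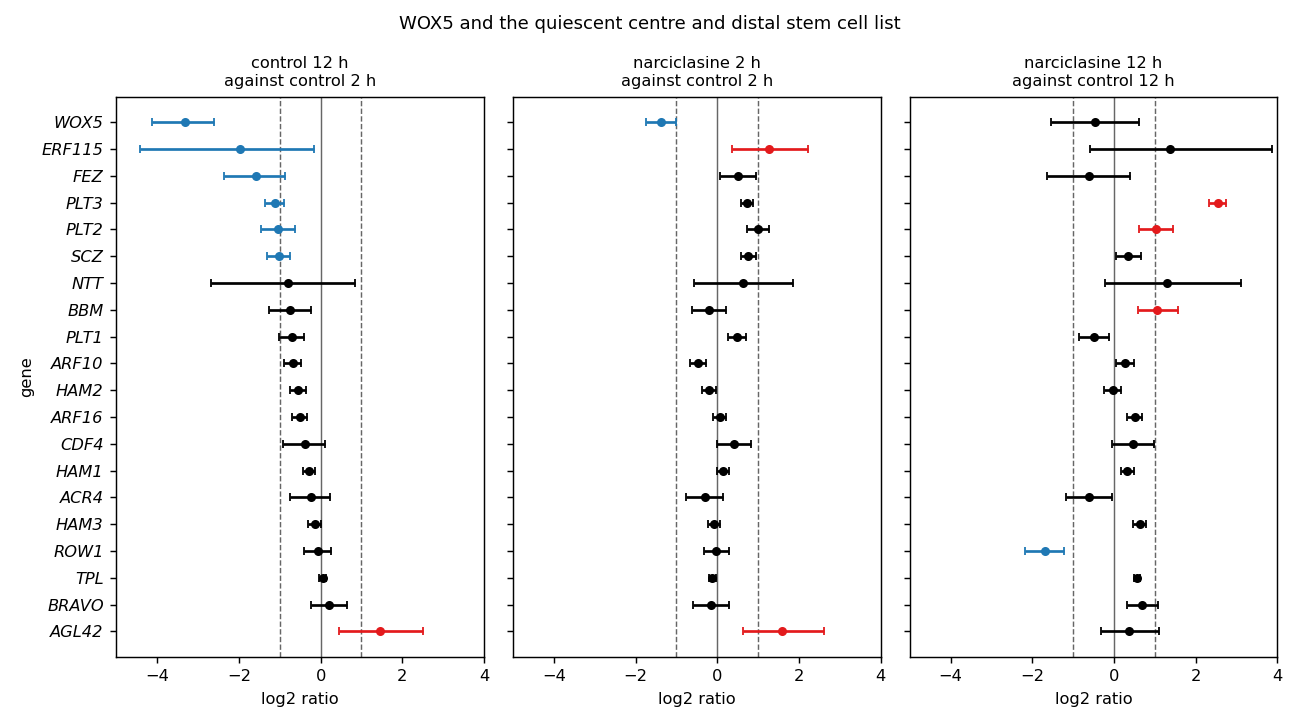
Log2 ratios with 95% counting intervals of WOX5 and the 19 compared genes of the quiescent centre and distal stem cell list, ordered by the comparison of the controls; red and blue mark genes higher and lower by the 2-fold rule. WOX5 is the lowest of them between the controls (-3.33) and at 2 h (-1.37), and PLT3 is the highest at 12 h.

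Of the other 14 WOX genes, 4 were compared. Over all genes 1.66% were lower at 12 h between the controls. With narciclasine 4.74% of all genes were higher at 2 h and 11.4% at 12 h. Between the controls WOX11 was lower at 12 h as WOX5 was (2.28-fold, 1.29 to 4.22), and the other compared WOX genes did not differ. WOX11 and WOX12, which act in the founding of adventitious and injury-induced roots, were 4.69-fold (2.79 to 8.36) and 3.66-fold (2.75 to 4.93) higher in narciclasine 12 h than in control 12 h. WOX14, a gene of vascular development, was 2.68-fold higher (1.49 to 5.13) there. WOX12 was also higher at 2 h (2.53-fold, 1.92 to 3.37), and WOX13 did not differ at either time. WOX7, the nearest relative of WOX5 by sequence with 81.6% identity over 223 bases, had 1 or 2 recovered reads in each library.

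Of the other 13 IDD genes, 11 were compared, and IDD12 and IDD13 were listed at 0 throughout. None differed at 2 h (median log2 ratio 0.51), where 6.81% of all genes did. At 12 h only IDD7 did, with 3.41 RPKM in control 12 h and 16.5 in narciclasine 12 h, 4.66-fold higher (3.57 to 6.16), beside 28.1% of all genes (median 0.21). Between the narciclasine libraries 5 were lower at 12 h, for example IDD6 (2.72-fold, 2.12 to 3.52) and IDD5 (2.16-fold), and IDD7 was higher (3.30-fold), beside 15.9% of all genes lower and 7.96% higher. IDD1 had the highest levels of the 11, from 18.04 RPKM in control 2 h to 41.3 in narciclasine 12 h. The remaining compared genes lay between 0.863 and 16.5 RPKM.

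**Figure D4:**
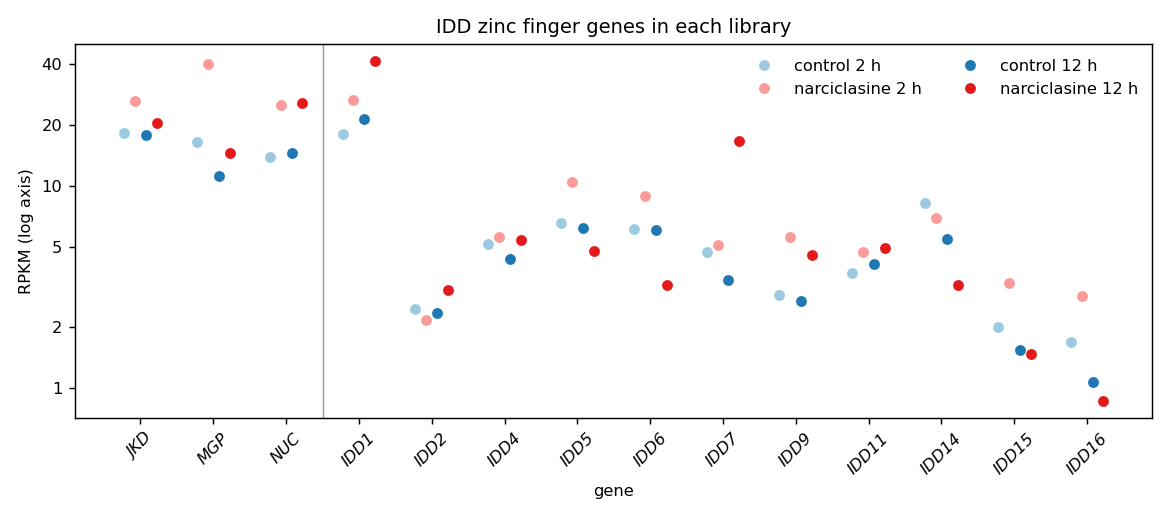
RPKM (log axis) of JKD, MGP and NUC, left of the line, and of the other 11 compared IDD genes in each library, 1 point per library. Across the libraries, MGP has its own highest level in narciclasine 2 h and IDD7 has its own in narciclasine 12 h (16.5 RPKM). IDD1 also has its highest level in narciclasine 12 h and lies above IDD7 there (41.3 RPKM).

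Of 8 genes listed as acting downstream of SHR and SCR, 7 were compared. Over all genes 4.74% were higher and 2.06% lower with narciclasine at 2 h, and 11.4% higher and 16.7% lower at 12 h. At 2 h only SNE, an F-box gene known as a target of SHR, was higher (2.05-fold, 1.12 to 3.90, on 17 and 35 reads), with a median log2 ratio of 0.69. A filter of 5 CPM ended this call and took the median to 0.26. MYB36, which switches on endodermis differentiation genes, had a ratio of 1.74 (1.58 to 1.91), below the threshold. At 12 h SCL3 (2.21-fold, 1.92 to 2.56), a GRAS target of SHR and SCR, and SNE (2.52-fold, 1.11 to 6.43) were higher and SCL23 (2.23-fold, 1.52 to 3.31), the closest relative of SCR, was lower (median -0.29). CYCD6;1, the D-type cyclin of the ground tissue division, had 14, 23, 12 and 6 reads in control 2 h, narciclasine 2 h, control 12 h and narciclasine 12 h. These few reads showed no difference from the control of either time. CYCD6;1 was 3.89-fold lower in narciclasine 12 h than in narciclasine 2 h (1.54 to 11.7), beside 15.9% of all genes. Its ratio of ratios was 4.23-fold lower (1.29 to 13.8), beside 16.0% of all genes. CASP1, a membrane scaffold protein of the Casparian strip, had a ratio of 0.907 at 2 h and 0.509 at 12 h. Of the 8 endodermis markers, SCR among them, 3 were lower at 12 h, beside 16.7% of all genes. CASP5 led these 3, at 2.84 RPKM against 69.7. The HD-ZIP III genes have mRNA that is cut by the microRNAs that SHR and SCR induce. Of these 5 genes 1 was lower at 12 h, CNA (2.39-fold), beside 16.7% of all genes, and none at 2 h (medians -0.46 and 0.09).

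The genes most alike in pattern were taken, for each member, as the 3 coding genes with the smallest distance between centred log2 profiles over the 4 libraries, among 8169 genes searched. For NUC they were PDE331, CRK1 and PAPP2C, at distances of 0.02 to 0.07. For SCR they were AUG6, SYN2 and SHB (0.03 to 0.05), for JKD they were SPC98, LOJ and SAUL1 (0.06 to 0.07), and for SHR they were CNGC15, MAP70-4 and MYB74 (0.08 to 0.09). MGP was less closely matched, by PROPEP6, SAUR9 and HAT1 (0.16 to 0.20). WOX5 had no close match by this distance, which can grow with the size of the changes in a profile. Its nearest were RNS1, GA20OX5 and PRN at 0.42, 0.55 and 0.67, all high in control 2 h. Their Pearson correlations with WOX5 were 0.987, 0.979 and 0.982. RNS1 had 141, 84.7, 17.8 and 17.4 RPKM in control 2 h, narciclasine 2 h, control 12 h and narciclasine 12 h. Among the members themselves SCR and JKD were nearest (0.28) and NUC and WOX5 farthest apart (3.05). With 4 points per profile many genes share a shape, so likeness here is a description.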

How the data were processed

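RNA-seq libraries were made from total RNA with the standard Illumina protocol, per the labels' protocols. The deposited values are RPKM computed by the authors. The aligner Bowtie (0.12.2) and the package edgeR appear in the submitters' processing notes, beside mm8, a mouse genome build, whereas the table holds Arabidopsis locus codes. How reads were counted, and whether by strand, is not given in the sources used here. Symbols, positions and sequences are from RefSeq TAIR10.1 (32835 of 33602 codes matched). The upstream windows of MGP and WOX5 are not reported here.

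Relative whole reads were recovered for the 22816 genes above 0 in at least 2 libraries, since RPKM values of a gene stand in ratios of whole reads. Library sizes were set by the fit to whole gene lengths within 0.02 bases. The recovery and the 2-fold rule were tested on simulated data. Of genes simulated with a true 2-fold difference the rule called 41% to 58%, depending on the comparison. A true ratio at the threshold is observed on either side of it, so this share follows largely from the rule itself. A gene not counted as differing may therefore still differ 2-fold. The fixed design had foreseen reads recovered from RPKM. A gene was compared where it reached 1 CPM in any library, after scaling by TMM. With 1 library per group no test was made. Ratios carry Clopper-Pearson counting intervals, approximate against the mean of both controls, and the ratio of ratios carries a normal one.

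The members and lists were chosen with earlier results of these data known. Named list genes were up to 4 per list that passed the rule with narciclasine; values of other genes were chosen after they were seen. Alternatives were other scalings, filters, fold thresholds, interval level, controls, pseudocounts, and reads from annotated exon length. Intervals were computed with scipy 1.17.1 under Python 3.11.15, and figures drawn with matplotlib 3.10.9.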

Additional observations from a re-analysis of the deposited data

Results flagged for a closer look

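SHR was the member whose narciclasine ratio lay on opposite sides of 1 at the 2 times with both counting intervals excluding 1. Its ratio was 1.32 at 2 h and 0.683 at 12 h, a log2 ratio of ratios of -0.95. With 1 library per group this difference between the times was not tested beyond counting error.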

How the results depend on the processing

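No paired analysis was possible because each group holds 1 library. Scaling by library size alone, by median of ratios or by upper quartile, no filter, a filter of 5 CPM, an interval of 99% and reads from annotated exon length changed no call of a member in any of the 5 comparisons. Of 342 alternative values for single members, 330 kept their side of the threshold and, where they differed by the rule, their direction. Ratios that did not differ could change sign, and against control 2 h those of MGP and SCR in narciclasine 12 h did (log2 ratios -0.19 and -0.14), as did JKD between the controls and SCR and NUC in the ratio of ratios, all near 0, under some scalings, filters, pseudocounts or the annotated exon length. The 1 differing value that reversed was WOX5 in narciclasine 2 h, with a log2 ratio of 1.96 against control 12 h in place of -1.37 against control 2 h. Against the mean of both controls 1 member differed at 2 h (MGP) and 1 at 12 h (WOX5, log2 ratio -2.92), and against control 2 h 1 member differed at 12 h (WOX5, -3.78). A threshold of 1.5-fold added NUC at both times, giving 3 members at 2 h and 1 at 12 h, and gave 2 for the ratio of ratios (SHR and MGP). A threshold of 4-fold left 0 members at 2 h and 1 between the narciclasine libraries (WOX5). Ranking likeness by Pearson correlation kept 0 or 1 of the 3 genes named per member. Depth limits WOX5 most, with 16 and 17 reads at 12 h.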
